A study of Mus musculus with 6 samples.

Results

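The regions described here are strong peaks of open chromatin that stayed level across every library of the study, called even peaks below. They were chosen by their own values: a peak on an autosome was kept when its mean over the 6 libraries was at least 20 CPM (the count of a peak divided by the total of its library, times 1000000) and its highest CPM was at most 15% above its lowest. The rule kept 2819 of 90823 peaks, and 2819 of the 15246 autosomal peaks that were strong enough. The other 12427 strong autosomal peaks are the comparison set. Because all 6 libraries entered the rule, the evenness of these peaks is how they were found and no test of it is given.

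The libraries are ATAC-seq libraries, in which a transposase cuts accessible DNA, of mouse intestinal organoids grown in Matrigel from isolated crypts. The 3 groups received vehicle, arachidonic acid (AA) at 25 µM, or prostaglandin E2 (PGE2) at 50 nM, for 3 days, and each group has 2 libraries. The design text names the prostaglandin 6,16-dimethyl PGE2 and the treatment text names PGE2, so the compound is written PGE2 as labelled. All groups shared a medium with EGF, Noggin, R-spondin, N-acetyl-L-cysteine, the GSK3 inhibitor CHIR-99021, the ROCK inhibitor Y-27632, B27 and N2, and intestinal epithelial cells were sorted before the reaction. The labels used here give no strain, sex or age of the mice, and do not say whether the libraries of a group came from separate cultures. The p-values thus reflect the spread between libraries only, and this spread may be technical.

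Open chromatin in a cell comprises gene starts, where the transcription machinery assembles, and distal elements such as enhancers, which are more often specific to a cell type or a signal. The starts of broadly expressed genes are usually rich in CpG and carry short motifs bound by general activators: the CCAAT box is bound by the trimeric factor NF-Y, the GC box by SP and KLF factors, and the sequence CCGGAAG by ETS factors. AA is the fatty acid from which prostaglandins are made, and PGE2 acts on gut epithelium through receptors that include cyclic AMP-raising ones.

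Totals ran from 12374232 to 14236985 counts per library. A peak at the start was found for 8 of 8 epithelial markers, at 42.0 to 78.6 CPM, for 0 of 7 stromal markers, for 2 of 7 immune markers (Cd68 at 23.3 CPM and Cd52 at 2.46 CPM) and for 1 of 5 endothelial markers (Kdr at 3.32 CPM). The summed CPM of the epithelial markers was 479 to 492 over the libraries, and that of the immune markers was 23.3 to 29.1. Single epithelial markers differed in both directions behind this sum. Krt8 had 85.3 and 85.7 CPM with vehicle and 71.7 and 68.9 under PGE2, while Cdh1 had 40.1 and 40.0, and 54.2 and 51.3. In bulk libraries, fewer cells with an open region and less opening per cell cannot be told apart.

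The 200 bases before the start of 8 genes with an even peak are shown first, because they show promoters of even peaks with at least 1 CCAAT box beside others with none. They come from RefSeq (build GRCm38.p6), run 5′ to 3′ on the strand of the gene, and end at the base before the start. Capitals mark matches on either strand to the CCAAT box (CCAAT), the GC box (GGGCGG) or an ETS motif (CCGGAAG). Mrpl51, Dhrs4 and Rab5b are the most even peaks with a promoter in the table, Mnt, Sp1 and Zfp687 the strongest, Rpl13a a reference gene of expression assays and Elf3 an epithelial transcription factor.
Mrpl51 (chr6:125192000-125192199, plus strand): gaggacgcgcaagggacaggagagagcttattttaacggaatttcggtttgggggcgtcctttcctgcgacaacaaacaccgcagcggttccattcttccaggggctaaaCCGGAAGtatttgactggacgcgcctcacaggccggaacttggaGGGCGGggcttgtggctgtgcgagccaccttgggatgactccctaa
Dhrs4 (chr14:55478558-55478757, plus strand): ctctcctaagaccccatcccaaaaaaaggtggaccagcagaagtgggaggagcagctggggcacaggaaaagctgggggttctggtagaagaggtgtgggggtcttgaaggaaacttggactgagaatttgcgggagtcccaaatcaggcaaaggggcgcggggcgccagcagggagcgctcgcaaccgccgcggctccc
Rab5b (chr10:128696269-128696468, minus strand): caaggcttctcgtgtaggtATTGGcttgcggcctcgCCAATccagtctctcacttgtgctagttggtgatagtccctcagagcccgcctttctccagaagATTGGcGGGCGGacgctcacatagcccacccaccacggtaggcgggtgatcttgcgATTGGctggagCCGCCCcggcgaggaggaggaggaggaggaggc
Mnt (chr11:74830724-74830923, plus strand): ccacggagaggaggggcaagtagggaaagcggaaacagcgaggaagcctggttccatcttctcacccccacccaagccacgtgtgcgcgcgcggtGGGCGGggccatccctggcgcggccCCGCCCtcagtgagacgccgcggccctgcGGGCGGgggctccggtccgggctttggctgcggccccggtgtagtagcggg
Sp1 (chr15:102406116-102406315, plus strand): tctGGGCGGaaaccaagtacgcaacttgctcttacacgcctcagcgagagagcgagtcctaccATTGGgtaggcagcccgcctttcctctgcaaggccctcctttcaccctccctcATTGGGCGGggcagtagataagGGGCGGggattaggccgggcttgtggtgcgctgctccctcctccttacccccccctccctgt
Zfp687 (chr3:95015458-95015657, minus strand): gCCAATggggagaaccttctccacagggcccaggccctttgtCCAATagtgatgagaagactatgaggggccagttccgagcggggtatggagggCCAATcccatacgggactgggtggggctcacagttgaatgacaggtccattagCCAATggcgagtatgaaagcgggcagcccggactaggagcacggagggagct
Rpl13a (chr7:45128746-45128945, minus strand): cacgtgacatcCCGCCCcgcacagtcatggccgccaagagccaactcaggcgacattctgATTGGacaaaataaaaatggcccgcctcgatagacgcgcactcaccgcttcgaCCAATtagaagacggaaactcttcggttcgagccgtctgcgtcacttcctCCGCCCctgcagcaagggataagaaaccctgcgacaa
Elf3 (chr1:135258473-135258672, minus strand): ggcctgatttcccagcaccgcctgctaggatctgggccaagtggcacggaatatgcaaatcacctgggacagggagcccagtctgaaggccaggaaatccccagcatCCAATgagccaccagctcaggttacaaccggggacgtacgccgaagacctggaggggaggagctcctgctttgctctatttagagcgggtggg

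Zfp687 and Rab5b each hold 4 CCAAT boxes in these 200 bases, Sp1 and Rpl13a hold 2 each, and Elf3 holds 1. Counted from -1 at the base before the start, the boxes of Zfp687 begin at -199, -158, -105 and -52. Those of Rab5b begin at -181, -164, -100 and -44. Mnt has 3 GC boxes and no CCAAT box, Mrpl51 has 1 GC box and 1 ETS match, and Dhrs4 has no match to these motifs. So the most even peaks differed in which of these motifs they held, and a match describes the letters only.

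The most even of all was the peak at Mrpl51, a protein of the mitochondrial ribosome (chr6:125191357-125192817). It stood at 78.0 and 77.9 CPM in the vehicle libraries, 79.6 and 77.9 under AA, and 77.8 and 78.3 under PGE2, so that the highest library was 1.023 times the lowest. The peak at Dhrs4, a peroxisomal reductase, ran from 36.1 to 37.0 CPM, with a ratio of 1.025. The peak at Rab5b, a GTPase of early endosomes, ran from 84.5 to 86.7 CPM, with a ratio of 1.027. The groups overlapped in each of these peaks, except that the AA libraries of Rab5b (86.5 and 86.7 CPM) lay just above its vehicle libraries (84.6 and 86.4 CPM). The strongest even peak was at Sfi1, a centrosomal protein gene, at 188 and 197 CPM with vehicle, 207 and 215 under AA and 206 and 191 under PGE2. Parts of Sfi1 are known to have copies elsewhere in the mouse genome, so how reads were placed there is uncertain. Next came Mnt, a MAX-binding repressor, at 175 and 176 CPM with vehicle, 186 and 198 under AA and 192 and 199 under PGE2. Its vehicle libraries lay below the other 4, within the limit that chose it. Sp1, which encodes a factor that binds GC boxes, stood at 184 and 191, 187 and 194, and 177 and 180 CPM in the same order. Zfp687, a zinc finger gene, was both strong and level, at 164 to 170 CPM. Gsk3b, the kinase that marks beta-catenin for destruction and the target of the CHIR-99021 in the medium, had 161 and 158 CPM with vehicle, 160 and 165 under AA and 171 and 177 under PGE2.

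**Figure D1:**
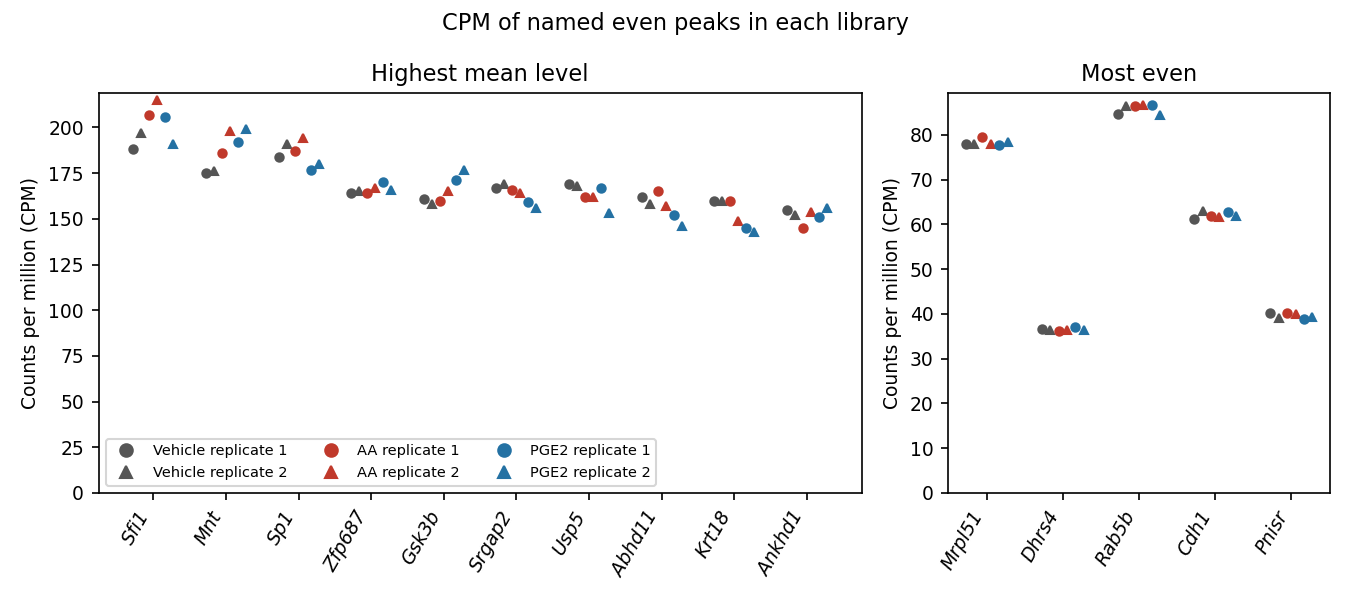
CPM of the 10 strongest even peaks (left) and of the 5 most even ones (right) in each of the 6 libraries; points are libraries, coloured by group, and both axes start at 0. Every peak spans at most 15% from its lowest to its highest library by choice, and the highest library of Mrpl51 is 1.023 times its lowest.

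Even peaks were stronger than the other strong peaks, with a median of 42.3 against 31.4 CPM, and of similar width (median 1104 against 1092 bp). Their share of strong peaks was 10.3% (373 of 3636) at 20 to 25 CPM, 24.0% at 40 to 60 CPM and 57.8% (119 of 206) from 100 CPM up. Counting error falls along the same range, from a coefficient of variation of 5.84% to 2.58%, and its part in this trend was not tested. The spread of an even peak over the 6 libraries was a median of 4.25%, where counting alone gives 4.24%, and the rule itself selected for a small spread. The other strong peaks had a spread of 9.91%, where counting gives 4.92%. Their medians of the highest to lowest ratio were 1.118 and 1.289. Together the even peaks held 13.4% to 13.75% of the counts of each library.

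Gene starts were common among even peaks: 1521 (54.0%) lay within 1 kb of the start of a protein-coding gene, against 42.7% of the other strong peaks and 15.9% of all peaks. For 251 of them the gene has no strand in the table used, so either end of the gene counted as its start, and with known starts alone the shares were 45.1% and 35.4%. The size of the gap depended on the form of the rule: 48.4% against 43.8% when CPM were scaled by TMM, 45.9% against 43.7% when the limit was 25%, and 61.0% against 49.4% when the floor was 40 CPM. The excess was present at every level, with 39.1% against 34.3% at 20 to 25 CPM, 56.7% against 49.2% at 40 to 60 CPM, and 78.2% against 37.9% from 100 CPM up. With known starts, the centre of an even peak lay a median of 13 bp after the start, against 55 bp for other strong peaks. Coding starts on opposite strands lay within 1 kb of 207 of the 1521 peaks (13.6%), against 8.95% of the other strong peaks at starts. Abhd11, a mitochondrial hydrolase gene, is one example of an even peak at a start: its peak of 157 CPM is centred 39 bp after the start.

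**Figure D2:**
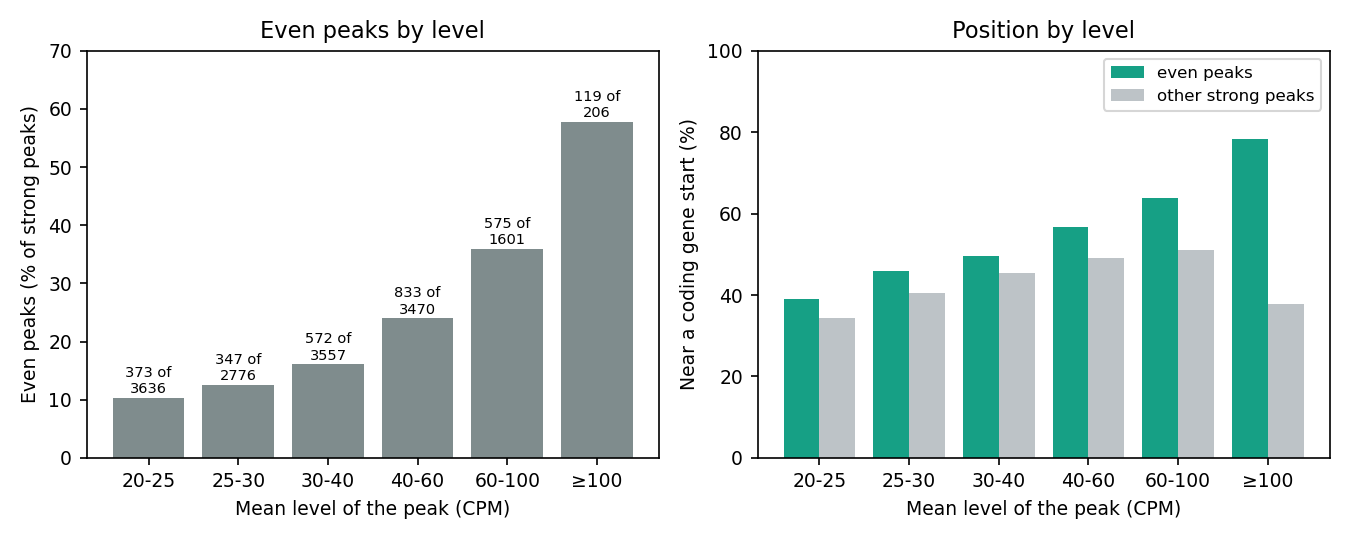
Left, the share of strong autosomal peaks that are even, by mean CPM, with the counts above the bars; right, the share within 1 kb of a coding gene start for even and other strong peaks. The share of even peaks rises from 10.3% to 57.8%, and the start share of even peaks is above that of the others at each level.

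RefSeq promoters, 250 bases before to 50 after a start, could be laid on 1269 even peaks and 4383 other strong peaks that contain the start. Of the 14 motifs searched, the CCAAT box had the largest difference between them in percentage points. At least 1 CCAAT box on either strand was found in 55.2% of promoters in even peaks, 41.3% in other strong peaks and 38.9% of all 16456 autosomal promoters in the table. At least 2 were found in 30.4% against 17.3%. Seen from the motif, 27.9% of strong promoters with a CCAAT box were even and 18.1% of those without. The boxes stood at a median position of -84 in even peaks and -81 in the others. A box between -120 and -40 was in 34.7% and 23.7% of the promoters.

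**Figure D3:**
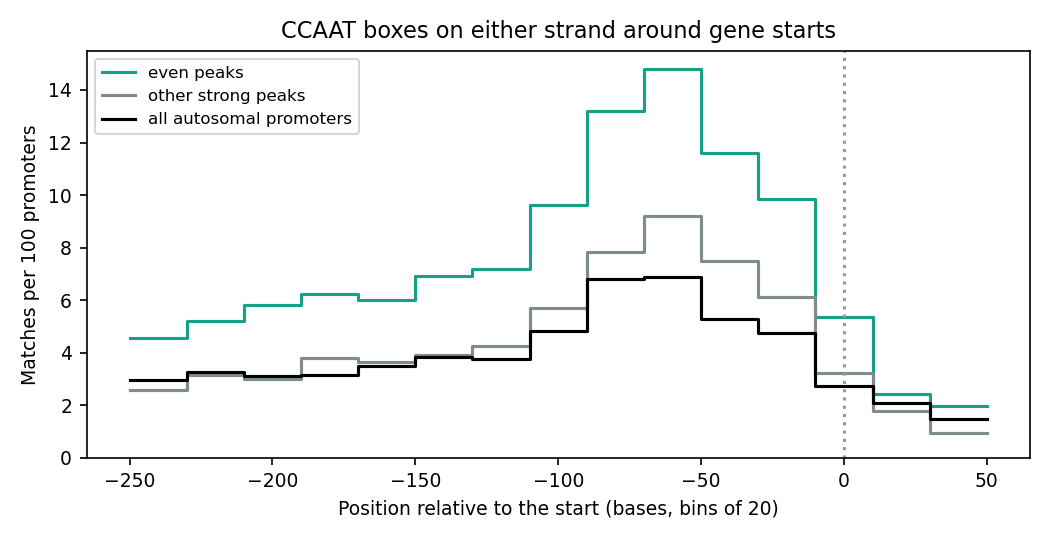
CCAAT boxes per 100 promoters in bins of 20 bases around the gene start (position 0, dotted), on either strand, for promoters in even peaks, in other strong peaks and for all autosomal promoters. All 3 curves are highest between -90 and -50, where even peaks reach 14.8 matches per 100 promoters and other strong peaks 9.22.

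The CDX motif (TTTATNG) was in 7.72% and 5.64% of the promoters of even and other strong peaks, at 98 and 247 promoters, a ratio about as large as that of the CCAAT box, and in 10.1% of all autosomal promoters. The TEAD motif (GGAATG) was in 12.1% and 10.5%, and in 13.2% of all autosomal promoters. GC boxes were in 69.2% and 72.9% of the promoters of even and other strong peaks (47.3% of all promoters), and ETS motifs in 22.9% and 20.9% (12.2%). The TATA box (TATAAA) was in 6.07% and 6.11% (13.5%), the AP-1 motif (TGANTCA) in 4.81% and 4.63%, and the CREB and ATF motif (TGACGTCA) in 3.7% and 3.58%. The last pair name factor families that act below growth factor and cyclic AMP signals. The promoters of even peaks had a median GC of 59.7%, against 63.3% in other strong peaks, 65.3% in those of them called changed with AA or PGE2, and 56.7% over all autosomal promoters. The ratio of observed to expected CpG was 0.759 against 0.805, so both sets were CpG-rich.

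GC and evenness were related in a stepwise way. From below 50% to 65% GC, 25.3% to 31.7% of strong promoter peaks were even, then 14.8% at 65% to 70% and 3.84% (37 of 964) from 70% up. In the last bin the median log2 difference over all strong promoter peaks, from edgeR with TMM scaling, was 0.52 for PGE2 against vehicle and 0.20 for AA against vehicle. Between the libraries of the PGE2 group themselves it was 0.20 (replicate 2 over 1), from CPM without TMM scaling. The same replicate difference was 0.06 under AA and -0.05 with vehicle. The part of GC in which peaks passed the rule was not tested. Within each GC bin under 70% the CCAAT share was higher in even peaks, for example 59.7% against 44.5% at 55% to 60% GC and 53.7% against 46.8% below 50%. From 70% up it was 29.7% against 32.0%. Across levels it was higher in even peaks in each bin, from 43.5% against 35.2% at 20 to 30 CPM to 67.6% against 55.5% from 60 CPM up.

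**Figure D4:**
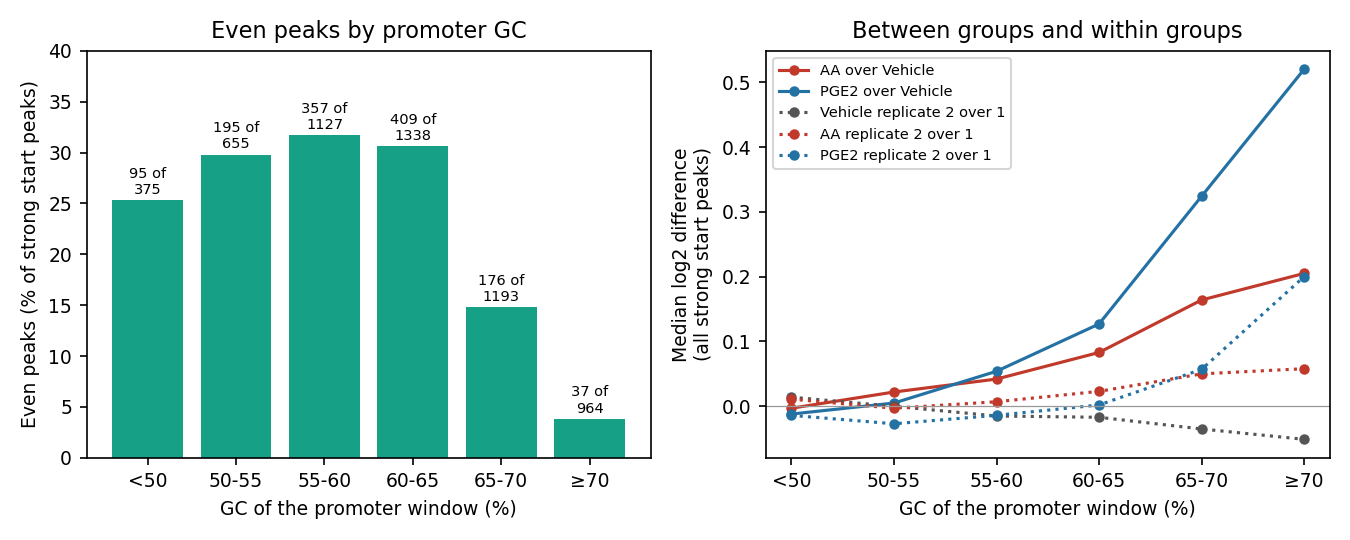
Left, the share of strong promoter peaks that are even, by GC of the 300-base promoter window, with counts above the bars. Right, the median log2 difference over all strong promoter peaks in each bin, between groups (solid, with TMM scaling) and between replicates of a group (dotted, CPM without TMM scaling). Even peaks fall to 3.84% where the PGE2 difference is 0.52 and the PGE2 replicates differ by 0.20.

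Genes of basic cell functions were described next, counting for each list the genes with an even peak at the start among those with any strong peak there. Over all coding genes this was 1515 of 6700 (22.6%). Ribosomal protein genes stood at 20 of 53 (37.7%), mitochondrial ribosome genes at 11 of 31 (35.5%) and respiratory chain genes at 17 of 49 (34.7%). Proteasome genes stood at 7 of 25 (28.0%), splicing factor genes at 12 of 46 (26.1%), RNA polymerase II and general transcription factor genes at 9 of 35 (25.7%) and translation factor genes at 10 of 42 (23.8%). Zinc finger genes (37 of 195, 19.0%) and ubiquitin enzyme genes (3 of 28, 10.7%) stood below the share of all coding genes. No list is compared by a test here, since all were read from peaks that the rule chose. The lists were also not matched for level. Among all strong start peaks the even share was 11.5% at 20 to 25 CPM, 41.2% at 60 to 100 CPM and 73.8% from 100 CPM up. The part of level in the list shares was not tested. Among ribosomal genes, Rps21 of the small subunit ran from 96.0 to 102 CPM, lowest in a PGE2 library and highest in a vehicle library. Among splicing genes, Hnrnpa1, an RNA-binding protein that influences splice site choice, had 121 and 120, 125 and 123, and 121 and 115 CPM. Atp5g1, which encodes a subunit of the ATP synthase ring, ran from 91.8 to 95.6 CPM, and Psmb3, of the proteasome core, from 66.3 to 74.4 CPM.

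**Figure D5:**
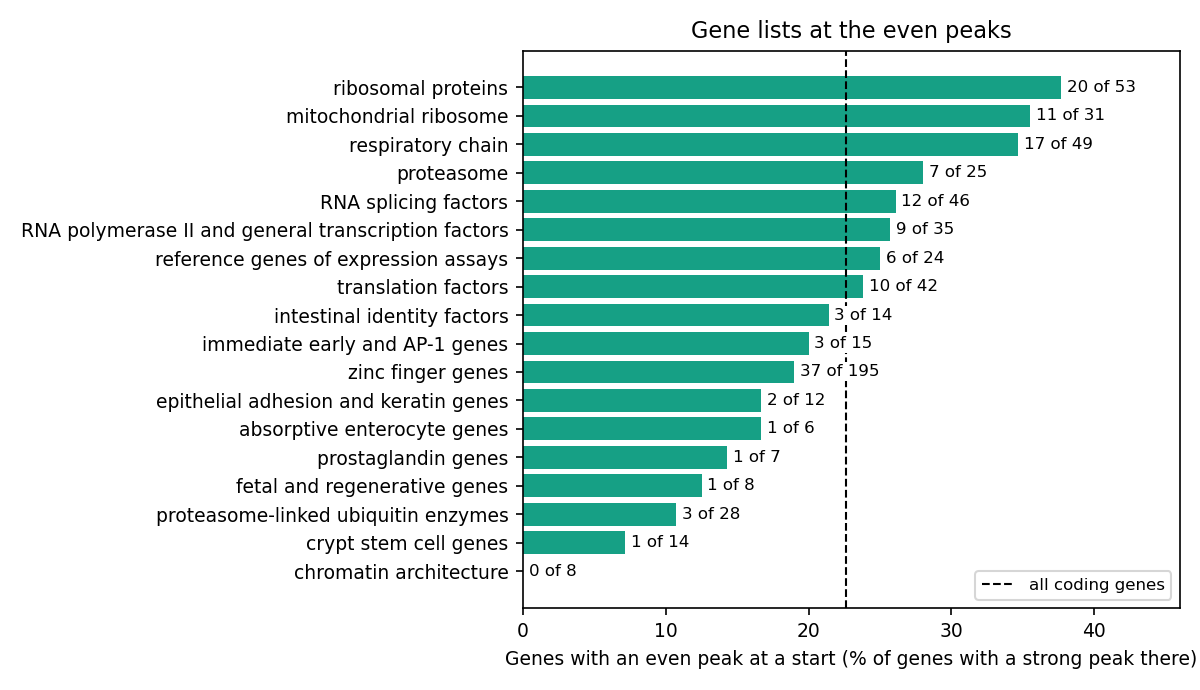
Genes with an even peak at a start as a percentage of the genes of each list that have a strong peak there, with counts beside the bars, for lists with 5 or more such genes. The dashed line is the 22.6% of all coding genes, and ribosomal proteins reach 37.7%. The lists were not matched for peak level.

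Of the genes used as references in expression assays, 6 of 24 with a strong start peak (25.0%) had an even one. This was near the 22.6% of all coding genes. The 6 were Atp5b, Gapdh, Gusb, Psmb2, Rpl13a and Tfrc. Rpl13a stood at 73.2 and 71.8 CPM with vehicle, 72.0 and 69.2 under AA and 74.3 and 72.1 under PGE2. Gapdh, the glycolytic enzyme, stood at 48.1 and 50.4, 51.8 and 49.3, and 53.4 and 46.6 CPM. Another peak 1169 bp from the Gapdh start was not even, at 74.0 and 74.4, 70.9 and 70.5, and 64.8 and 61.6 CPM, with PGE2 libraries below all others. Openness at a start is not a measure of the RNA of these genes.

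Epithelial and signalling genes had even peaks as well, in places beside peaks that were not. At Elf3, 4 of 12 assigned peaks were even, as many as at any gene, a count noticed after the values were seen. Its start peak ran from 89.4 CPM in a PGE2 library to 96.6 CPM in an AA library, with the vehicle libraries at 93.1 and 94.3 CPM. The other even ones lay 31080, 9817 and 7489 bp from the start, at means of 78.0, 42.9 and 32.7 CPM. Rnf43, a Wnt receptor ubiquitin ligase that is itself a Wnt target, also had 4, of 15 peaks. One of these, 2599 bp from an annotated start, ran from 85.9 to 92.9 CPM. Another, 10133 bp from the same start, stood at 111 and 110 CPM with vehicle, 103 and 97.1 under AA and 98.3 and 96.6 under PGE2, near the limit of the rule. Cdx2, the homeobox factor of intestinal identity, had an even start peak of 65.2 to 69.1 CPM. In all, 3 of 14 identity factor genes with a strong start peak (21.4%) had an even one, against 22.6% of all coding genes. Each list that follows, where it had a strong start peak, also stood below 22.6%, at small numbers of genes. Crypt stem cell genes stood at 1 of 14 (Prom1, at 40.1 to 43.9 CPM). Fetal and regenerative genes stood at 1 of 8 (Ly6e), immediate early genes at 3 of 15 (Fosl1, Ier2 and Klf6), prostaglandin genes at 1 of 7 (Lta4h, which makes leukotriene B4) and adhesion and keratin genes at 2 of 12 (Cldn3 and Jup). Absorptive enterocyte genes stood at 1 of 6 (Cdhr2) and secretory lineage genes at 0 of 3. Genes of chromatin architecture stood at 0 of 8, stromal and endothelial markers had no strong start peak, and immune markers stood at 0 of 1.

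Evenness did not extend over the whole of the loci described next. An even peak lay 18026 bp from the nearer end of Cdh1, the gene of E-cadherin. It stood at 61.3 and 63.0 CPM with vehicle, 61.8 and 61.7 under AA and 62.8 and 61.8 under PGE2, a ratio of 1.028. Another even peak, inside Cdh1 and 11571 bp from its nearer end, ran from 26.5 to 29.4 CPM. The start peak of Cdh1, in contrast, stood at 40.1 and 40.0, 41.7 and 45.0, and 54.2 and 51.3 CPM, and rose with PGE2 by 0.44 ± 0.068 (log2, SE; adjusted p = 2.37e-06, edgeR quasi-likelihood test). A region inside Cdh1, 12786 bp from its nearer end, rose with AA by 1.09 ± 0.12 (adjusted p = 8.82e-10). The values at Fos, an immediate early gene of AP-1, were of the same kind in the opposite direction. Its even peak, 12894 bp after the start, stood at 72.3 and 76.3 CPM with vehicle, 78.1 and 73.5 under AA and 73.3 and 79.5 under PGE2. The start peak of Fos stood at 74.6 and 73.6, 63.7 and 59.1, and 56.2 and 55.0 CPM, and fell by 0.24 under AA and by 0.37 under PGE2 (adjusted p = 0.00157 and 5.36e-06). A peak 4902 bp from the start fell by 0.81 under PGE2 (adjusted p = 2.68e-08). Among the named genes with the most changed peaks was Shroom3, which encodes an actin-binding protein of apical constriction. Of its 39 peaks 20 were called with AA or PGE2, 17 of them higher and 2 lower with AA. Its even peak, inside the gene, ran from 21.3 to 22.6 CPM. The peak next to it, 182 bp from a coding start, stood at 20.5 and 18.4, 24.8 and 21.7, and 24.8 and 28.1 CPM.

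Over all loci, 1425 of 2337 genes with an even peak (61.0%) also had another peak called with AA or PGE2. The matching share for other genes was not computed, so this is not read as a trait of loci with even peaks. Of the even peaks with a neighbour within 10 kb, 61.4% had a called one (1370 of 2232), against 64.1% of the other strong peaks. In edgeR, 30.5% of the 89347 tested peaks were called in AA against vehicle (16.7% higher, 13.8% lower), 24.9% in PGE2 against vehicle (14.3% and 10.6%) and 9.95% in AA against PGE2 (5.06% and 4.88%), at an adjusted p under 0.05. Among the 4662 tested peaks within 10 kb of an even peak that were not even themselves, the shares were 31.1%, 24.1% and 12.5%. Among the neighbours of other strong peaks they were 33.4%, 26.1% and 13.0%. The neighbours of even peaks thus stood close to both, and the difference was not tested. The comparisons with vehicle share the vehicle libraries.

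The same edgeR fit can be read on the even peaks, as a description, since the rule used these contrasts. It called 87 of 2819 in AA against vehicle (86 higher and 1 lower), 74 in PGE2 against vehicle (71 higher and 3 lower) and 8 in AA against PGE2 (4 and 4). These are 3.09%, 2.63% and 0.284% of them, where 30.5%, 24.9% and 9.95% of all tested peaks were called, and nothing is read from that difference. DESeq2 called 0, 0 and 0, with 12, 10 and 0 at an unadjusted p under 0.05, where edgeR had 227, 240 and 142. The direction depended on the scaling: with plain library totals edgeR called 30 higher and 13 lower with AA, 16 and 40 under PGE2, and 17 and 3 in AA against PGE2. TMM scaling moved all log2 values by 0.033 for AA and 0.045 for PGE2 against vehicle. Aimp2, a scaffold of the tRNA synthetase complex, had the largest change with PGE2, with 67.1 and 66.7 CPM with vehicle, 71.5 and 75.9 under AA and 75.6 and 76.5 under PGE2. Its vehicle libraries lay below the rest, so a peak may pass the rule and still separate by group. By CPM the AA and vehicle libraries did not overlap in 47.2% of even peaks, against 75.1% of other strong peaks. For PGE2 and vehicle these shares were 51.9% and 80.4%, and for AA and PGE2 46.4% and 68.4%. The rule itself limits such differences in even peaks, so nothing is read from this contrast. The share over all peaks was not computed. With 2 libraries per group some peaks separate by the order of libraries alone, so these shares are not read as an effect of treatment. The far end of the 95% interval of the log2 change lay a median of 0.20 from 0 in each contrast. It lay at most 0.40 from 0 for AA against vehicle, 0.41 for PGE2 against vehicle and 0.36 for AA against PGE2. The rule limited the change in these same libraries beforehand, so these intervals describe the fit and do not bound the true change at 95%.

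These counts moved with single libraries. For AA against vehicle they were 7 and 12 without vehicle replicate 1 or 2, 46 and 14 without AA replicate 1 or 2, and 159 and 160 without PGE2 replicate 1 or 2. For PGE2 against vehicle they were 7 and 9 without either vehicle replicate and 122 and 34 without PGE2 replicate 1 or 2. For AA against PGE2 they were 4 and 0 without vehicle replicate 1 or 2, 0 and 0 without either AA replicate, and 20 without PGE2 replicate 1. At those counts of 0, edgeR had 94, 91 and 65 even peaks at an unadjusted p under 0.05.

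The lowest library of an even peak was PGE2 replicate 2 in 889 cases (31.5%), and the highest in 266 (9.44%), while the other libraries were lowest in 12.5% to 16.1%. The rule applied to the 5 other libraries kept 4248 peaks, of which 66.3% were also kept by all 6, against 3434 to 3740 peaks without any of the others. Without PGE2 replicate 2 the CCAAT share of promoters was 53.4% against 40.0% in other strong peaks, and 53.0% of the peaks lay near a start. Without both PGE2 libraries 6588 peaks were kept, with a CCAAT share of 50.5% against 38.6%.

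Away from starts lay 1298 even peaks, 664 of them inside a coding gene and 634 between genes. They were lower than the start peaks, with a median of 37.8 against 46.2 CPM, and narrower, with 1005 against 1174 bp. The strongest was 11454 bp before the start of Krt18, a keratin of simple epithelia, at 160 and 160 CPM with vehicle, 160 and 149 under AA and 145 and 143 under PGE2. The PGE2 libraries were its lowest. A peak 19085 bp before Cldn3, a tight junction claudin, had 131 and 137, 148 and 147, and 141 and 130 CPM. At Hnf4a, a nuclear receptor of gut epithelium, an even peak inside the gene, 5578 bp after an annotated start, stood at 80.7 and 75.7, 81.1 and 81.1, and 72.6 and 72.3 CPM. A start of a long noncoding RNA lay within 1 kb of 82 distal even peaks (6.32%), against 5.03% of other distal strong peaks. Farther than 50 kb from any coding start were 266 even peaks (9.44%), against 14.4% of other strong peaks and 23.8% of all. The farthest lay 616594 bp from the nearest start, that of Chordc1, in a region without coding genes, and ran from 47.5 to 53.4 CPM. Another lay inside Pde4d, a cyclic AMP phosphodiesterase gene, 576005 bp from a start, at 49.0 to 55.8 CPM.

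Across autosomes the share of strong peaks that were even ran from 15.3% on chromosome 16 to 22.8% on chromosome 19. At the edge of the rule, 242 even peaks had a ratio within 0.005 below the limit and 273 strong peaks had one within 0.005 above it. Just inside were peaks at Pllp (57.5 CPM) and Bicra (24.1 CPM), and just outside peaks at Shb (42.1 CPM) and Mtarc2 (38.4 CPM). The weakest even peaks, at Rdh13 and Pisd, and the strongest level peaks left out, at Spon1 and Ep300, all had means that round to 20.0 CPM. The edge divides peaks with near equal values.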

How the data were processed

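Open chromatin was measured in 6 libraries. The authors deposited 1 table of raw counts for a shared set of peaks, made with featureCounts (1.6.3) on read pairs without regard to strand, per the file headers. The submitters' processing notes list Trim Galore, BWA, Picard, SAMtools and MACS2, and build mm10; the labels give no settings. Regions outside the shared peaks have no value. Each library was matched by its column name, and 0 per-sample columns went unused.

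CPM were computed from library totals. The main test was edgeR (4.0.16, R 4.3.3), quasi-likelihood with TMM factors of 0.969 to 1.02, on 89347 peaks left by filterByExpr, with 1 fit for all groups, 3 residual degrees of freedom and Benjamini-Hochberg adjustment at 0.05. It was tested on simulated data. Its p-values and intervals also draw on the spread of other peaks, through a median of 42.3 prior degrees of freedom. DESeq2 (1.42.0), plain totals, no filter, a replicate block and leaving out each library were alternatives. Peaks were assigned to the coding gene with the nearest start within 50 kb (RefSeq, GRCm38.p6, the assembly of mm10), or the nearest end where no strand was known. Exons and UTRs were not used. The promoter table lacks some genes, and distal sequences were not analysed here. In 300-base windows 14 motifs were searched on both strands. Even peaks held a median of 555 counts per library, which gives a counting error of 4.24%.

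Peaks were named by a rule: the 10 strongest, the 5 most even, those at the edges, up to 3 strongest per gene list, the widest, narrowest and farthest, 5 at genes with the most changed peaks, and the 3 with the largest changes per contrast. Start peaks of list genes, and neighbouring peaks at Elf3, Rnf43, Cdh1, Fos, Shroom3 and Gapdh, were added after their values were seen. Not every named peak is reported here. The members and the 22 lists were chosen with earlier results of these data known.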

Additional observations from a re-analysis of the deposited data

How the results depend on the processing

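The number of even peaks was 2831, 3166 and 3055 with autosomal totals, TMM-scaled totals and DESeq2 size factors, and 2309 of the 3166 were also kept by the rule as given. A floor of 10 CPM gave 3424 and one of 40 CPM gave 1527. A limit of 10% between highest and lowest gave 831 and one of 25% gave 7589. Leaving out 1 library gave 3434 to 4248. Over all peaks DESeq2 called 8991 in AA against vehicle (67.2% higher, against 54.7% in edgeR), 7361 in PGE2 against vehicle (71.8% against 57.6%) and 582 in AA against PGE2 (39.3% against 50.9%). edgeR had called 27281, 22257 and 8886. Leaving out 1 library gave 18219 to 30456, 13667 to 21329 and 3072 to 9643.

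The share of even peaks near a start, 54.0%, was 49.6% within 500 bp, 57.0% within 2 kb, 48.4% with TMM-scaled CPM, 61.0% with a floor of 40 CPM, 45.9% with a limit of 25% and 45.1% with known starts alone, the last added after seeing the data. In each of these the other strong peaks had a lower share. The called share of neighbours was 32.5%, 26.3% and 14.8% within 5 kb, 29.4%, 23.6% and 11.2% within 50 kb, and by DESeq2 9.0%, 8.91% and 1.28% of the 4624, 4265 and 2820 to which it gave an adjusted p (8.92%, 8.15% and 0.772% of all 4662). Among the neighbours of other strong peaks the edgeR shares were 36.3%, 28.4% and 15.8% within 5 kb. Within 50 kb they were 30.7% for AA and 24.9% for PGE2 against vehicle, and slightly below 11.2% for AA against PGE2. By DESeq2 they were 10.9%, 8.18% and 0.829% of all neighbours within 10 kb. Even peaks thus had the lower share in these settings, except for AA against PGE2 within 50 kb. These differences were not tested. The CCAAT share and the GC of promoters under other rules were also added after seeing the data.

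Replicate numbers in the labels were tried as pairs. Deviations of libraries with the same number correlated at -0.0198 to 0.0357, so no pairing was seen. The correlations were taken over all tested peaks, most of them weak, where counting error is large, so they cannot exclude a pairing. With the replicate block edgeR called 27630, 22672 and 9414 peaks, and 93, 76 and 10 even ones. With 2 libraries per group, Dixon's outlier test was not possible.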
